A study of Danio rerio with 4 samples.

Results

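The genes described here are those of respiratory complex I, taken as every gene whose symbol on the array platform starts with nduf. There were 38 such genes among 14434 genes with a symbol. Of these, 29 encode complex I subunits, 7 encode assembly factors, which help to build the complex but are not part of it, and 2, ndufa4a and ndufa4l2a, encode no complex I subunit. For each gene the probe with the highest mean signal was used. Probes had to exceed the 40th percentile of signal on 2 or more of the 4 arrays to be tested, which left 37 of the 38 genes and 28 of the 29 subunit genes, among 11526 genes tested in all. The subunit gene ndufs8b was below that level on 4 of 4 arrays, with log2 signals of 0.43 and 0.13 in mutant hearts, against 0.69 and 0.25 in wild-type (WT) hearts, where the level stood between 1.92 and 2.31. The dimmest gene that was tested, ndufa4l2a, had log2 signals between 4.45 and 6.14. Each of the 37 tested genes lay above the level on 4 of 4 arrays, so none entered through 1 group alone.

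Zebrafish hearts were dissected by hand at 72 hpf (hours after fertilization). The 2 groups were ccm2 m201 mutants, with 2 samples, and WT embryos, with 2 samples, and the RNA of each sample was read on 1 single-colour array. The ccm2 gene encodes an adaptor protein named for cerebral cavernous malformations, a disease of blood vessels. The description field of both mutant samples also speaks of Bmp2b overexpression, which their titles and genotypes do not, and the labels do not settle this. Nothing in them says that the samples of a group came from separate clutches, and p-values measure only the spread between these samples, which may be technical. Levels are log2 processed signals scaled to each array's 75th percentile, differences are mutant minus WT on that scale, and the 2 arrays per group limit the precision of each value.

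Complex I is the NADH dehydrogenase of the mitochondrial inner membrane and the first enzyme of the respiratory chain. Its matrix arm takes electrons from NADH through a flavin and a chain of iron-sulfur clusters to ubiquinone, and its membrane arm pumps protons. Core subunits carry out catalysis, while accessory subunits surround and stabilise them. The core subunits of the membrane arm are encoded by mitochondrial DNA and were not analysed here. Cardiac muscle is rich in mitochondria and expresses these genes strongly.

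The labelled tissue was checked against markers of cardiomyocytes. Of 24 listed markers 17 were tested, and their mean log2 signal was 12.40 and 11.997 in mutant hearts, against 12.70 and 12.65 in WT hearts. myl7, the atrial and ventricular myosin light chain gene of the embryonic zebrafish heart, had log2 signals of 14.38 and 13.87 in mutant hearts and of 14.21 and 14.03 in WT hearts. Both groups thus had strong signal for this heart marker.

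Complex I subunit genes lay lower in ccm2 mutant hearts than in WT hearts in all 28 estimates, of which 4 passed the test. The differences ran from -1.20 to -0.40 on the log2 scale, with a median of -0.86, or 0.552 of the WT signal. Over all 11526 tested genes the median difference was -0.04, and 52.4% of the differences were below 0. In 27 of the 28 subunit genes both mutant arrays lay below both WT arrays, which was the case for 35.2% of all tested genes. The opposite order, both mutant arrays above both WT arrays, was found in 0 subunit genes and in 32.6% of all tested genes. limma, fitted across all probes with Benjamini-Hochberg adjustment, called 4 of the 28 subunit genes lower at an adjusted p under 0.05 and 0 higher, and the other 24 did not pass. Among all genes, 9.03% were called lower and 8.10% higher. At an unadjusted p under 0.05, 25 of the 28 subunit genes were lower, against 18.8% of all genes. The adjusted p of the 28 genes ran from 0.0308 to 0.490, and 18 of them were under 0.1. Passing did not follow size alone, as ndufa7 at -1.14 did not pass, whereas ndufa3 at -0.98 did.

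Over the 28 subunit genes, the mean log2 signal was 12.43 and 12.08 on the 2 mutant arrays, against 13.20 and 13.005 on the 2 WT arrays. The mutant arrays were thus below the WT arrays, and the second array of each group was below the first. Mutant replicate 2 was below mutant replicate 1 in 28 of 28 subunit genes, and WT replicate 2 below WT replicate 1 in 26 of 28. The subunit genes therefore moved together between replicates as well, by less than between groups. The SD of the 28 differences among themselves was 0.19, while the median SE of a single gene's difference was 0.22. That SE also holds the shift between replicates that the genes shared, which does not enter the SD among the differences. The 2 values therefore do not show whether the genes differed among themselves beyond error.

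**Figure D1:**
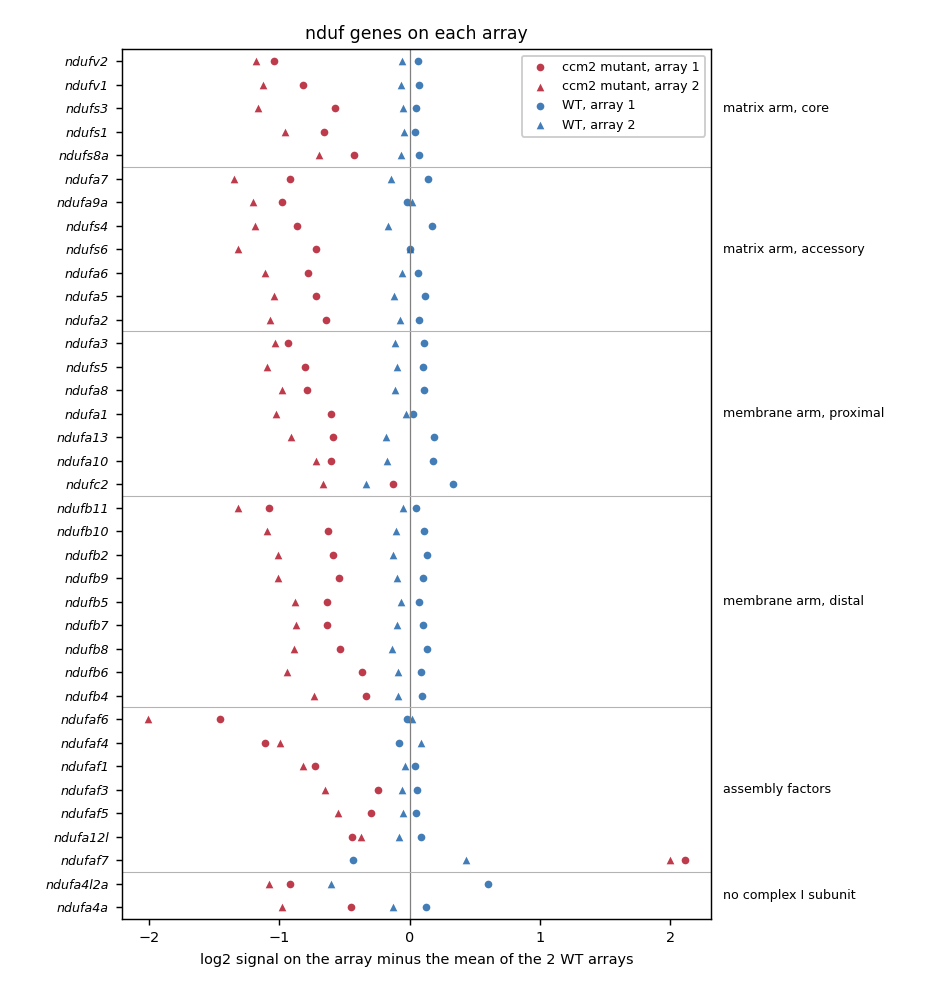
Log2 signal of each tested nduf gene on each array minus the mean of its 2 WT arrays (x axis), with genes in rows grouped by role; red marks are ccm2 mutant arrays and blue marks WT arrays, circles array 1 and triangles array 2. The red marks lie left of the blue marks in 35 of 37 genes, overlap them in ndufc2 and lie right of them in ndufaf7.

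In the matrix arm, 5 core subunit genes were tested. Both mutant arrays lay below both WT arrays in all 5, as in 35.2% of all tested genes, and 1 gene, ndufv2, passed the test. Over all tested genes 9.03% were called lower. Beside that share, 1 call in a part of 5, 7 or 9 genes, here and in the parts below, says little. ndufv2, which encodes an iron-sulfur subunit next to the site of NADH oxidation, had log2 signals of 11.88 and 11.75 in mutant hearts, against 12.99 and 12.87 in WT hearts. The groups did not overlap, and the gap between them was several times the gap between arrays of a group. ndufv2 fell by 1.11 ± 0.18 (SE) in log2 terms, to 0.463 of the WT signal (adjusted p = 0.0319). ndufs1, which encodes the largest iron-sulfur subunit, had log2 signals of 14.21 and 13.91 in mutant hearts, against 14.91 and 14.83 in WT hearts. Its groups did not overlap either, and the difference of -0.81 ± 0.20 (SE) did not pass (adjusted p = 0.0718). The second ndufs1 probe gave -1.04 and passed (adjusted p = 0.0338). ndufs8a, which encodes another iron-sulfur subunit, had log2 signals of 11.09 and 10.83 in mutant hearts, against 11.60 and 11.45 in WT hearts. This was among the 3 smallest differences of the subunit genes, at -0.56 ± 0.20 (SE, adjusted p = 0.139). Between these lay ndufv1, the gene of the NADH-binding flavoprotein, at -0.97, and ndufs3 at -0.87, neither of which passed. The second ndufv1 probe gave -1.09 and did not pass either (adjusted p = 0.0642).

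The 7 tested genes for accessory subunits of the matrix arm had a median difference of -1.02 and lay between -1.14 and -0.86. ndufa9a, whose product sits near the ubiquinone site, was the 1 called among them, with log2 signals of 11.19 and 10.96 in mutant hearts, against 12.15 and 12.19 in WT hearts. Both mutant arrays were about 1 log2 unit below the WT arrays, which nearly coincided. It fell by 1.09 ± 0.18 (SE, adjusted p = 0.0353). ndufa7 had log2 signals of 12.25 and 11.81 in mutant hearts, against 13.31 and 13.02 in WT hearts. It had the second largest difference of all subunit genes at -1.14 ± 0.25 (SE), and with a wider spread between arrays it did not pass (adjusted p = 0.0573). ndufa6, a member of the LYR motif family, had log2 signals of 13.88 and 13.55 in mutant hearts, against 14.72 and 14.60 in WT hearts, without overlap (difference -0.94 ± 0.21, SE, adjusted p = 0.0579). ndufs4, whose loss in humans causes Leigh syndrome, differed by -1.02, and the zinc-binding subunit gene ndufs6 by -1.02. Neither passed, and the mutant arrays of ndufs6 were spread over an SD of 0.42, against 0.0023 for its WT arrays. ndufa5 at -0.88 and ndufa2 at -0.86 did not pass, whereas the second ndufa5 probe gave -1.08 and did (adjusted p = 0.0431).

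In the membrane arm, the proximal part next to the matrix arm was represented by 7 tested genes with a median of -0.81. ndufa3, a small single-span subunit gene, had log2 signals of 7.76 and 7.66 in mutant hearts, against 8.80 and 8.58 in WT hearts. The 4 arrays formed 2 separate pairs, and ndufa3 fell by 0.98 ± 0.19 (SE, adjusted p = 0.0437). ndufc2 was the exception among the subunit genes, with log2 signals of 12.65 and 12.11 in mutant hearts, against 13.11 and 12.44 in WT hearts. Mutant replicate 1 was above WT replicate 2, so the groups overlapped, and the difference of -0.40 ± 0.35 (SE) was the smallest of the 28 (adjusted p = 0.490). The other 5 genes, ndufs5, ndufa8, ndufa1, ndufa13 and ndufa10, lay between -0.95 and -0.66 and did not pass. ndufa13 is also known as GRIM-19, a factor of cell death signalling in mammals. The second ndufa8 probe gave -0.94 and passed (adjusted p = 0.0476), while the second ndufs5 probe gave -0.80 and did not (adjusted p = 0.0827).

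The distal part of the membrane arm was represented by 9 tested genes with a median of -0.76. ndufb11 had the largest difference of all subunit genes, with log2 signals of 12.15 and 11.92 in mutant hearts, against 13.29 and 13.19 in WT hearts. The groups were far apart relative to their own spread, and ndufb11 fell by 1.20 ± 0.19 (SE, adjusted p = 0.0308), to 0.435 of the WT signal. ndufb8 had log2 signals of 14.30 and 13.94 in mutant hearts, against 14.96 and 14.69 in WT hearts, and its difference of -0.71 ± 0.23 (SE) did not pass (adjusted p = 0.121). ndufb4 had log2 signals of 13.73 and 13.33 in mutant hearts, against 14.16 and 13.98 in WT hearts. Its groups did not overlap, but at -0.53 ± 0.23 (SE, adjusted p = 0.198) it was the second smallest difference. The other 6 genes lay between -0.86 for ndufb10 and -0.65 for ndufb6 and did not pass. Among them, ndufb2 had a second, dimmer probe that gave 0.05, the only further tested probe of the nduf genes, out of 12, with the opposite sign to the probe used. The second probes of ndufb10 (-0.87, adjusted p = 0.0559) and ndufb8 (-0.74, adjusted p = 0.0947) did not pass.

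**Figure D2:**
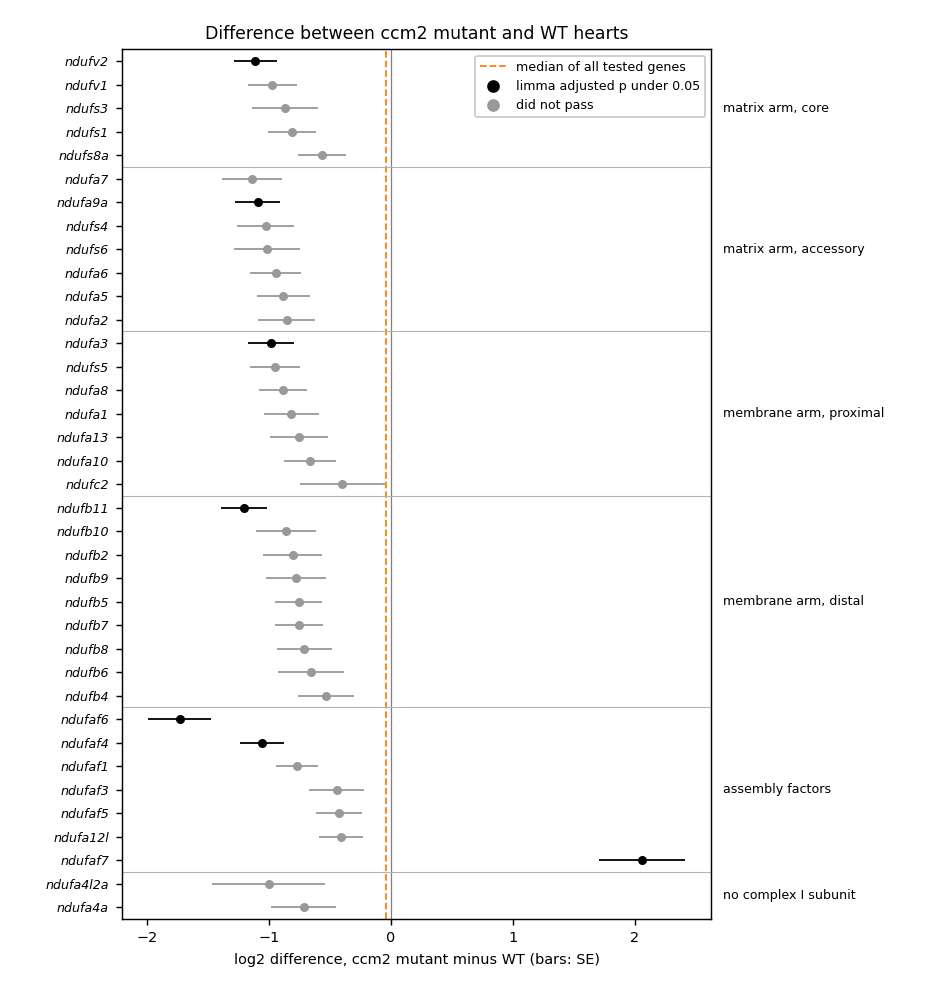
Log2 difference of each tested nduf gene, ccm2 mutant minus WT (x axis, bars are the SE), in rows grouped by role; black points passed limma's test at an adjusted p under 0.05, grey points did not, and the dashed line is the median of all tested genes at -0.04. All 28 subunit genes lie left of that line, between -1.20 and -0.40.

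Comparing the parts of the enzyme within each array takes out shifts that all members share. The mean of the accessory matrix arm genes minus that of the distal membrane arm genes was -0.46 and -0.46 in mutant hearts, against -0.27 and -0.23 in WT hearts. Relative to the distal membrane arm, the accessory matrix arm genes were thus lower in mutants by a difference of -0.21 on the log2 scale. Against the proximal membrane arm genes, the same genes gave 0.91 and 0.82 in mutant hearts, against 1.01 and 1.15 in WT hearts, a difference of -0.22. The groups did not overlap in either. Among the other 4 of the 6 pairs of parts, 2 did not overlap either. The core minus the accessory matrix arm genes gave -0.24 and -0.18 in mutant hearts, against -0.35 and -0.31 in WT hearts, a difference of 0.13. The core matrix arm minus the distal membrane arm genes gave -0.70 and -0.64 in mutant hearts, against -0.63 and -0.55 in WT hearts, a difference of -0.08. The other 2 pairs overlapped. These contrasts between parts were not tested, and with 2 arrays per group a difference of this size rests on few values. The 6 pairs share the same parts, so they are not independent. Lack of overlap was also common. Among all tested genes, both mutant arrays lay below both WT arrays in 35.2% and above them in 32.6%.

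Of the 7 tested assembly factor genes, 2 fell, 1 rose and 4 did not pass, with a median of -0.45. The shares over all tested genes were 9.03% lower and 8.10% higher. Their differences ran from -1.73 to -0.41 in 6 genes and stood at 2.05 in ndufaf7. Whether they differed from the subunit genes was not tested. ndufaf6, whose product is needed in human cells for an early step of assembly, had log2 signals of 7.93 and 7.38 in mutant hearts, against 9.37 and 9.40 in WT hearts. The mutant arrays were clearly below the WT arrays, and ndufaf6 fell by 1.73 ± 0.26 (SE, adjusted p = 0.0279), to 0.301 of the WT signal. Its second probe gave -1.57 and also passed (adjusted p = 0.0180). ndufaf4, which encodes a factor of early assembly, had log2 signals of 8.45 and 8.56 in mutant hearts, against 9.47 and 9.64 in WT hearts, and fell by 1.05 ± 0.18 (SE, adjusted p = 0.0362).

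ndufaf7, which encodes a methyltransferase, went the other way. It had log2 signals of 7.97 and 7.86 in mutant hearts, against 5.43 and 6.29 in WT hearts. The mutant arrays agreed closely and were above both WT arrays, which were spread over an SD of 0.61. It rose by 2.05 ± 0.35 (SE, adjusted p = 0.0361), a 4.15-fold difference. Its second probe had log2 signals of 5.77 and 6.12 in mutant hearts, against 5.40 and 5.54 in WT hearts. That probe was also higher in mutants, but by 0.48 ± 0.21 (SE, adjusted p = 0.213), so the 2 probes disagreed in size. The mean over both probes gave a difference of 1.27, which passed. ndufaf7 was the only nduf gene, of 37 tested, with a difference above 0.

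The remaining assembly factor genes were lower on both mutant arrays without passing. ndufaf1, part of the assembly complex that also holds Ecsit and Acad9, had log2 signals of 11.86 and 11.77 in mutant hearts, against 12.62 and 12.54 in WT hearts (difference -0.77 ± 0.17, SE, adjusted p = 0.0593). ndufaf3, the partner of ndufaf4, had log2 signals of 11.58 and 11.17 in mutant hearts, against 11.88 and 11.76 in WT hearts. ndufaf5, the gene of an enzyme that modifies the core subunit Ndufs7 in humans, had log2 signals of 9.44 and 9.19 in mutant hearts, against 9.79 and 9.69 in WT hearts. The gene ndufa12l, named ndufaf2 in the current RefSeq annotation and known as a late assembly factor, had log2 signals of 8.19 and 8.26 in mutant hearts, against 8.72 and 8.55 in WT hearts. These last 3 differences, between -0.45 and -0.41, were smaller than those of 27 of the 28 subunit genes.

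Assembly factors of complex I that do not carry an nduf name also tended downward. Of 8 tested, 2 fell, 0 rose and 6 did not pass, with 8 of 8 differences below 0 and a median of -0.81. Among all tested genes, 9.03% were called lower, and 52.4% of the differences were below 0. ecsit had log2 signals of 8.40 and 8.43 in mutant hearts, against 10.05 and 9.84 in WT hearts, and fell by 1.53 ± 0.18 (SE, adjusted p = 0.0189). aifm1, the gene of apoptosis-inducing factor, which complex I biogenesis requires in mammals, had log2 signals of 12.45 and 12.39 in mutant hearts, against 13.56 and 13.51 in WT hearts. Its arrays nearly coincided within each group, and it fell by 1.11 ± 0.17 (SE, adjusted p = 0.0289).

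Both genes with an nduf name but no subunit of complex I were lower on both mutant arrays and did not pass. ndufa4a, whose human counterpart NDUFA4 is now counted as a subunit of complex IV, had log2 signals of 14.24 and 13.71 in mutant hearts, against 14.82 and 14.56 in WT hearts (difference -0.72 ± 0.27, SE, adjusted p = 0.156). Its second probe gave -0.73. ndufa4l2a, whose human counterpart is induced by hypoxia, had log2 signals of 4.61 and 4.45 in mutant hearts, against 6.14 and 4.93 in WT hearts. WT replicate 2 was close to the mutant arrays, and the difference of -1.003 had an SE of 0.46 (adjusted p = 0.225).

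**Figure D3:**
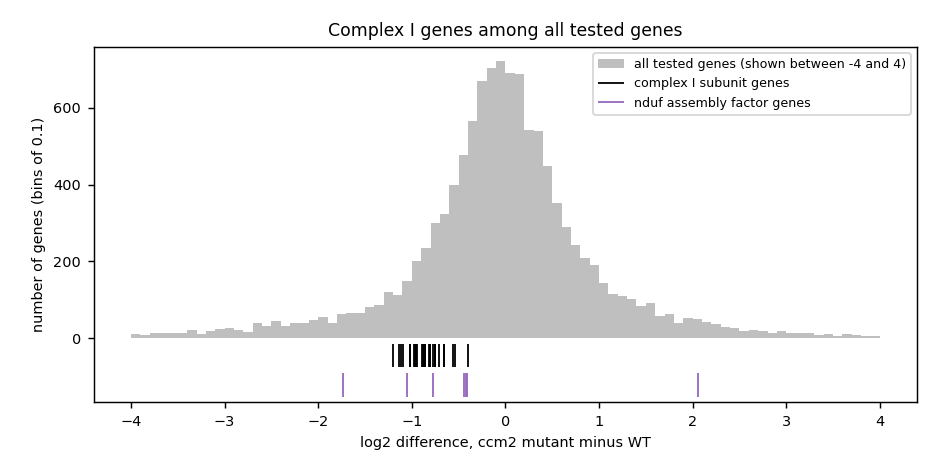
Number of tested genes per bin of 0.1 (y axis) against the log2 difference, ccm2 mutant minus WT (x axis, shown between -4 and 4), with the 28 complex I subunit genes as black ticks and the 7 nduf assembly factor genes as purple ticks below. The black ticks stand together on the left flank of the distribution, which is centred near its median of -0.04.

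The other complexes of the respiratory chain were described from the same fit. Over all tested genes, 9.03% were called lower and 8.10% higher, and 1 call in a list of 5 or 6 genes says little beside that share. Complex III had 1 of 6 tested genes lower and 0 higher, with a median of -0.79, and the called gene was uqcrb (-0.996). Complex IV, the cytochrome c oxidase, had 6 of 13 lower and 0 higher, with a median of -1.04. Its called genes were cox5b2 at -2.99, cox6a2 at -2.53, cox7a1 at -1.50, cox6b1 at -1.41, cox7a2a at -1.13 and cox5aa at -1.04. Cox6a2 and cox7a1 are named for the isoforms found in heart and skeletal muscle of mammals. Complex V, the ATP synthase with its inhibitor proteins, had 0 of 14 called by limma, 14 of 14 differences below 0 and a median of -0.63, with 6 genes at an unadjusted p under 0.05. Complex II had 1 of 5 lower, sdhb at -1.05, 0 higher and a median of -0.49, with 4 of 5 differences below 0. The other gene, sdhda, named here after its values were seen, went the other way, with log2 signals of 4.77 and 4.07 in mutant hearts, against 3.004 and 1.25 in WT hearts. It was not well above background on either WT array and did not pass (adjusted p = 0.108). The mean difference of complex II was -0.05, which includes sdhda at 2.29. The other 4 differences ran from -1.05 to -0.44. Whether complex I differed from the other complexes was not tested.

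Cytosolic ribosomal protein genes, a list added after seeing the data, give a comparison with genes that are also bright on these arrays. They were brighter on average than the subunit genes, with mean log2 signals of single genes from 6.57 to 16.23. Their mean log2 signal over 70 tested genes was 14.56 and 14.07 in mutant hearts, against 14.54 and 14.28 in WT hearts. They shared the lower values of the second array of each group, but their median difference was -0.08, and limma called 0 of 70, with 0 at an unadjusted p under 0.05. The mean of the complex I subunit genes minus that of the ribosomal protein genes was -2.13 and -1.99 in mutant hearts, against -1.34 and -1.28 in WT hearts. Within each array, the subunit genes were thus lower relative to ribosomal protein genes in both mutant samples, by a difference of -0.75 between the groups.

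Cell type markers also differed between the groups, and in bulk samples fewer cells of a type and less RNA per cell cannot be told apart. The counts of called markers stand beside shares of 9.03% lower and 8.10% higher over all tested genes. Cardiomyocyte markers had 3 of 17 lower and 0 higher, with a median of -0.21. The called genes were nkx2.5 (-1.69), smyd1b (-1.995) and ldb3a (-1.25). The mean of the subunit genes minus that of the cardiomyocyte markers was 0.03 and 0.09 in mutant hearts, against 0.50 and 0.35 in WT hearts, a difference of -0.37. That contrast rests on the marker mean, which differed by -0.48, more than the marker median. Single markers ran from -1.995 for smyd1b to 0.88 for myh6, with 11 of 17 below 0. Scaling to cardiomyocyte markers, described below, uses the same mean. Red blood cell markers had 9 of 12 lower and 1 higher, and their mean log2 signal was 6.92 and 6.83 in mutant hearts, against 9.73 and 9.45 in WT hearts. gata1a, the gene of a defining transcription factor of red blood cells, had log2 signals of 1.19 and 1.56 in mutant hearts, below the level required of a tested probe, against 7.02 and 6.43 in WT hearts. tfr1a was below that level in mutant hearts too, at 0.73 and 1.53, against 4.49 and 3.66 in WT hearts. Both genes thus entered the test through the WT arrays alone. The marker called higher was alas2, with log2 signals of 10.58 and 10.30 in mutant hearts, against 8.52 and 8.47 in WT hearts. sptb differed by -0.19 and did not pass. Leukocyte markers had 8 of 9 higher and 0 lower, with means of 7.97 and 8.06 in mutant hearts, against 5.95 and 6.03 in WT hearts. Endothelial and endocardial markers had 4 of 9 higher and 0 lower, with means of 11.22 and 11.06 in mutant hearts, against 10.70 and 10.69 in WT hearts. They did not move as a set, since 3 of the 9 differences were below 0. These were nfatc1 (-0.94), tal1 (-0.49) and erg (-0.24), none of which passed. Smooth muscle and outflow tract markers had 3 of 6 lower (fbln5, tagln and mylka) and 0 higher, with means of 9.09 and 8.61 in mutant hearts, against 10.66 and 10.58 in WT hearts. In this list acta2 (-0.13) and myh11a (-0.27) did not pass. The means also hold cnn1b, which was not well above background on either mutant array, at 2.64 and 0.25. Fast skeletal muscle markers had 3 of 11 lower and 1 higher, with means of 7.43 and 7.23 in mutant hearts, against 7.90 and 8.02 in WT hearts. Nervous system markers had 6 of 9 lower and 1 higher, with means of 5.70 and 5.71 in mutant hearts, against 6.64 and 7.26 in WT hearts. Among those lower, elavl3 was below the level required of a tested probe in mutant hearts, at 0.91 and 1.19. It too entered the test through the WT arrays alone, at 2.82 and 3.62. The part of these cell types in the complex I differences was not tested.

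**Figure D4:**
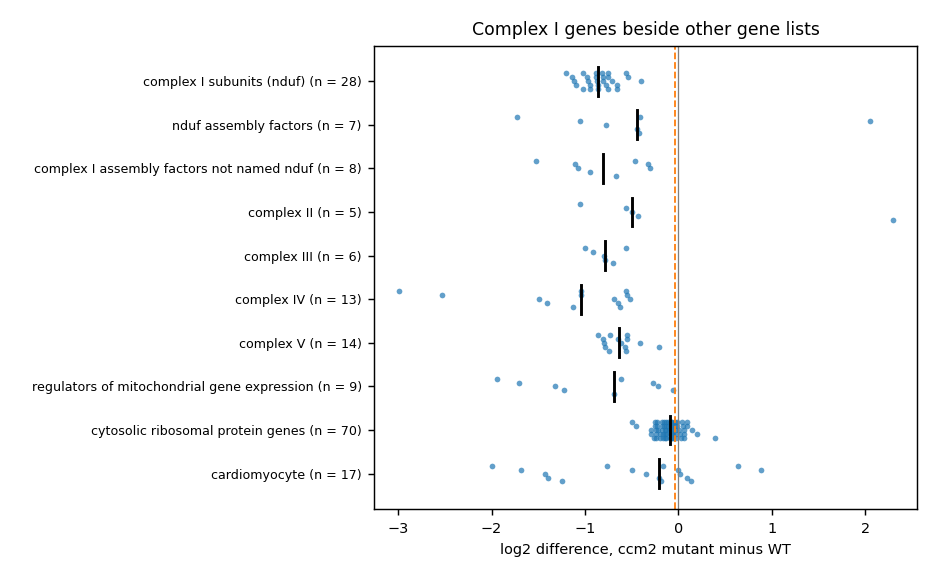
Log2 difference of single genes, ccm2 mutant minus WT (x axis), in complex I and in other lists (rows, with the number of tested genes); points are genes, vertical bars are medians, and the dashed line is the median of all tested genes at -0.04. Complex I subunit genes cluster around -0.86, while ribosomal protein genes cluster around -0.08.

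Regulators of mitochondrial gene expression were measured by 9 tested genes, of which 3 fell, 0 rose and 6 did not pass. Among all genes, 9.03% were called lower. The 6 that did not pass lay between -1.23 for ppargc1b and -0.06 for nrf1. Among them, gabpa differed by -0.22, and mutant and WT arrays overlapped in nrf1 and ppardb. esrra, an orphan nuclear receptor gene known to activate genes of oxidative metabolism, had log2 signals of 4.24 and 4.27 in mutant hearts, against 6.23 and 6.17 in WT hearts. It fell by 1.95 ± 0.17 (SE, adjusted p = 0.0113). The related receptor gene esrrga had log2 signals of 5.39 and 5.85 in mutant hearts, against 7.19 and 7.45 in WT hearts, and fell by 1.70 ± 0.25 (SE, adjusted p = 0.0274). tfb2m, which encodes a transcription factor of mitochondrial DNA, had log2 signals of 8.33 and 8.48 in mutant hearts, against 9.77 and 9.68 in WT hearts, and fell by 1.32 ± 0.18 (SE, adjusted p = 0.0233). In each of these 3 genes both mutant arrays lay below both WT arrays, as they did in 35.2% of all tested genes. The 3 were named because they passed the test, so this order adds nothing to the calls.

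The direction of the subunit genes held under each alternative except 1, but the number of genes past the threshold did not. Under 14 of the 15 alternatives, 28 of 28 subunit differences were below 0, and with arrays scaled to cardiomyocyte markers 27 of 28 were. Most of these outcomes were fixed in advance. The changes of filter, a variance prior that follows intensity and a replicate block left the estimates unchanged, from -1.20 to -0.40. Leaving out 1 array could not change the sign in the 27 genes whose mutant arrays both lay below both WT arrays. Scaling to cardiomyocyte markers moved the median to -0.38, against 0.44 for all genes under that scaling. limma called 0 subunit genes lower with scaling to cardiomyocyte markers (lowest adjusted p = 0.104), with scaling to ribosomal protein genes (0.0990), with no filter (0.0685) and with a replicate block (0.0669). It called 3 with median scaling, 2 with no scaling, 6 with quantile normalization and 5 with the mean over probes. It called 23 with normexp on raw median signal, 19 when only probes above the 60th percentile on all 4 arrays were tested, and 24 with a variance prior that follows intensity. Lower calls over all genes, given in the closing section, also rose with normexp and with that prior. For the 60th percentile, where fewer probes were tested, they are not given, so the 19 stand beside no share. They are not given for quantile normalization and the mean over probes either, so the 6 and the 5 stand beside no share. Leaving out 1 array leaves 1 group with 1 array, so only sizes are given here. The 28 differences ran from -1.15 to -0.07 without WT replicate 1 and from -1.28 to -0.63 without WT replicate 2. They ran from -1.35 to -0.67 without mutant replicate 1 and from -1.08 to -0.13 without mutant replicate 2.

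**Figure D5:**
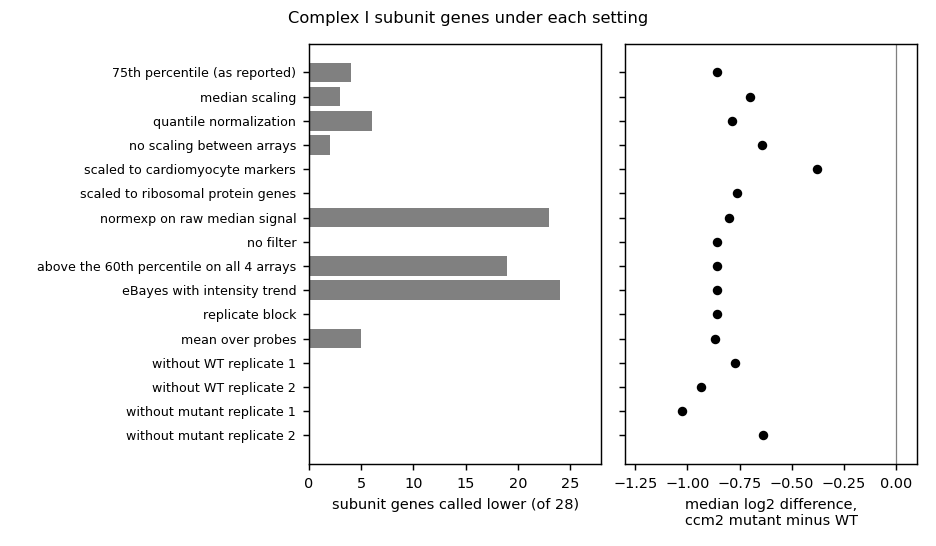
Number of the 28 subunit genes called lower (left, bars from 0) and their median log2 difference, ccm2 mutant minus WT (right, points), under each way of processing the arrays (rows). The calls range from 0 to 24, while the medians range from -1.03 to -0.38.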

How the data were processed

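RNA was measured on 4 single-colour (Cy3) Agilent arrays, 2 per group, and samples were grouped by their titles. Per the file headers, the authors extracted the deposited intensity with Agilent Feature Extraction 10.5.1.1, which subtracted background, detrended each array and replaced very dim spots with surrogates. The deposited columns were not scaled between arrays: their 75th percentiles matched the header values. The values in the series table were identical over the 43803 features. The deposited raw median signal was used in 1 alternative. Between 54.0% and 55.9% of features per array were well above background, per the file headers.

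Spots of 1 probe were averaged on the log2 scale, and the 75th percentile of each array was subtracted, with 1 constant added to all arrays. Of 43603 probes, 26824 were tested in a two-sided test by lmFit and eBayes of limma 3.58.1 (R 4.3.3; prior df 1.97 and residual df 2). P-values were adjusted by Benjamini-Hochberg across them. The procedure was also run on simulated arrays with independent noise for each probe. Those arrays lack the shift between replicates that genes shared here, so that run does not cover it. Members were named by the platform symbol, and other genes by symbols updated through RefSeq identifiers. The platform annotation gave 1 symbol for 21061 features and none for 22742. Values per array are printed for nduf genes past the test, every nduf assembly factor and the 2 nduf genes that encode no complex I subunit. Among subunits they are also printed for the 3 largest and 3 smallest differences and the 3 highest signals. This rule was set with the lists. In the other lists, called genes are given per array, by their difference or only as counts. Some genes there that did not pass are named outside that rule, among them myl7 as a check of the tissue. The members and lists were chosen with earlier results of these data known, and the ribosomal protein list was added after seeing the data. Replicate numbers are shared between groups, but same-numbered samples deviated together only weakly over all tested probes (r = 0.071), so the fit has no block. This weak correlation over all probes need not describe the subunit genes themselves. Their replicate 2 was below replicate 1 in 28 of 28 genes in mutants and in 26 of 28 in WT. Over all tested genes, this order was found in 6638 and 6150 of 11526. The subunit genes moved together, so their counts amount to 1 shared shift per group. They do not show whether same-numbered samples are paired. The fit with a block is given among the alternatives. Figures were drawn with matplotlib 3.10.9. Reference sequences of these genes were not used here.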

Additional observations from a re-analysis of the deposited data

How the results depend on the processing

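With the scaling at the 75th percentile, 6 nduf genes were called lower and 1 higher. The count of lower calls was 3 with no scaling between arrays, 1 with scaling to cardiomyocyte markers, 1 with scaling to ribosomal protein genes (an alternative chosen after seeing the data), 26 with normexp on raw median signal, 1 with no filter, 22 above the 60th percentile on all 4 arrays and 27 with an intensity trend; the cause was not tested. It ranged from 0 to 0 when 1 array was left out, and so did the higher call. The higher call, ndufaf7, was also lost with no filter (0). With a replicate block (the sample number), limma called 0 nduf genes lower and 0 higher, and 475 of all genes lower and 399 higher, against 1041 and 934; the labels do not say that the numbers pair the samples. The median of the subunit genes was -0.86, moved to -0.38 with scaling to cardiomyocyte markers and lay between -1.03 and -0.64 when 1 array was left out. Under that marker scaling, 4 genes that did not pass turned sign: ndufa12l (0.072), ndufaf3 (0.034), ndufaf5 (0.055) and ndufc2 (0.081). Over all genes, the median of -0.04 became 0.11 with median scaling, 0.17 with no scaling, 0.44 with cardiomyocyte scaling and 0.06 with ribosomal protein scaling. The split of calls over all genes was 1144 higher and 809 lower with median scaling, 1295 and 770 with no scaling, 1597 and 566 with cardiomyocyte scaling, 733 and 673 with ribosomal protein scaling, 1350 and 1625 with normexp, 511 and 607 with no filter and 1420 and 1594 with an intensity trend. With 1 array left out, calls over all genes ranged from 0 to 261 higher and from 0 to 306 lower. Quantile normalization and the mean over probes gave 8 and 7 lower nduf genes, against the 6 reported. Calls over all genes are not given for either, so these counts stand beside no share. Calls over all genes above the 60th percentile on all 4 arrays are not given, so the 22 lower nduf genes there stand beside no share. Arrays in each group numbered 2, which limits the precision of single genes.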
